A study of Homo sapiens with 6 samples.

Results

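The SKA complex, the RZZ complex and the proteins of the fibrous corona and its dynein adaptors form the outermost, microtubule-facing layer of the kinetochore. The 10 genes described here are SKA1, SKA2 and SKA3 (SKA complex), ZW10, ZWILCH and KNTC1 (RZZ complex), and SPDL1, NDE1, CENPE and CENPF (corona and dynein adaptors). They were taken by symbol, and all 10 were found among the 13008 genes of the authors' deposited comparison table and among the 13153 genes tested here. The libraries were of polyadenylated RNA from human hTERT-RPE1 cells, a telomerase-immortalised retinal pigment epithelial line, that carry a stable tetracycline-inducible FLAG-FOXM1c transgene. In 3 libraries (dox, labelled FOXM1 overexpression) the cells had received doxycycline at 1 µg/mL every 24 h for 48 h, and 3 (no dox) are of the same line, labelled WT genotype and no treatment. The record attaches the doxycycline protocol text to all 6 samples, and the groups follow the title and treatment labels. The sources used here do not say whether the line is a single clone, and doxycycline-treated cells without the transgene were not analysed here, so doxycycline and induced FOXM1 cannot be told apart. No label says that replicates came from separate cultures, and a p-value then measures only the spread between these libraries, which may be technical.

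Kinetochores assemble on centromeric chromatin and bind spindle microtubules. The SKA complex holds the NDC80 complex onto depolymerising microtubule ends. The RZZ complex polymerises into the fibrous corona before microtubules attach, recruits the checkpoint proteins MAD1 and MAD2, and through Spindly, the product of SPDL1, brings in the minus-end motor dynein. CENP-E is a plus-end-directed kinesin of the corona, and CENP-F a very large coiled-coil corona protein that binds NDE1 and its dynein-regulating partners. Several of these genes are periodically transcribed, peaking late in the cell cycle, the phase in which the forkhead factor FOXM1 is known to activate promoters together with MuvB and B-MYB.

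FOXM1 itself had 65289, 66830.4 and 74976 normalised counts (depth-equalised read counts per gene) in dox libraries 1 to 3, against 5009, 4383 and 4292 in no dox libraries 1 to 3, a log2 difference of 3.92 (SE 0.10, limma adjusted p = 4.49e-06). Transcripts of the transgene and of the endogenous gene are counted together. Sequencing depth, as implied by the step between CPM values, ran from 15094498 to 49882123 reads per library, and between 232 reads (SKA1 in no dox replicate 3) and 18283 reads (CENPF in dox replicate 2) stood behind each value of the 10 genes. Of the epithelial markers, KRT8 had 25.9 to 33.4 FPKM in dox and 20.0 to 27.2 FPKM in no dox libraries. Over all libraries KRT18 had 34.6 to 65.2 and KRT7 3.02 to 4.45 FPKM, while EPCAM was listed at 0 and CDH1 reached at most 0.0106 FPKM. Of 8 markers of retinal pigment epithelium, MITF and OTX2 lay between 1.91 and 3.14 FPKM, RPE65 reached at most 0.220, and TTR was listed at 0. Of 6 mesenchymal markers, VIM had 254 to 382 FPKM in dox and 273 to 396 FPKM in no dox libraries. Over all libraries FN1 had 71.4 to 89.3, CDH2 31.0 to 40.3, COL1A1 5.64 to 12.7 and TWIST1 4.90 to 8.06 FPKM. Only COL1A2 was near 0, at most 0.0254 FPKM. Markers of leukocytes and endothelium were near 0, at most 0.0575 FPKM summed over the 4 found, with CD3E listed at 0.

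The promoters of 9 of the 10 genes were read from RefSeq (GRCh38.p14), as windows of 300 bases from 250 before to 50 after the annotated start, and the 5 shown are those of the complete SKA complex and of corona genes that hold the cell cycle genes homology region (CHR). Through this element MuvB complexes are known to bind. Capitals mark the CHR (TTTGAA or its reverse complement TTCAAA) and the NF-Y box (CCAAT or its reverse complement ATTGG), which the factor NF-Y is known to bind. The windows lie at chr18:50374796-50375095 (SKA1, plus strand), chr13:21176503-21176802 (SKA3, minus strand), chr5:169583523-169583822 (SPDL1, plus strand, the first of its 2 listed starts), chr1:214602945-214603244 (CENPF, plus strand) and chr17:59155137-59155436 (SKA2, minus strand).
SKA1: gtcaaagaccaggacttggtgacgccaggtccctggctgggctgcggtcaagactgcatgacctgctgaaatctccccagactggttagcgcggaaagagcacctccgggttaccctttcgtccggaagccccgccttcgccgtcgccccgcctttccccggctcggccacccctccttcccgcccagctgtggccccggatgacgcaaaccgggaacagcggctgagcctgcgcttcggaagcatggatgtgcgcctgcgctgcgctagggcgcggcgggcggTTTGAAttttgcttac
SKA3: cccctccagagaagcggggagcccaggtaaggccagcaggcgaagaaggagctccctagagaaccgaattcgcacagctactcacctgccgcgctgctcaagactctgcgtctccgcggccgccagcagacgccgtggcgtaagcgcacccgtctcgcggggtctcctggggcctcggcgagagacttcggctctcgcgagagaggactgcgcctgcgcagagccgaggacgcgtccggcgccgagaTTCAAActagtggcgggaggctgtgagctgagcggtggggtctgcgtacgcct
SPDL1: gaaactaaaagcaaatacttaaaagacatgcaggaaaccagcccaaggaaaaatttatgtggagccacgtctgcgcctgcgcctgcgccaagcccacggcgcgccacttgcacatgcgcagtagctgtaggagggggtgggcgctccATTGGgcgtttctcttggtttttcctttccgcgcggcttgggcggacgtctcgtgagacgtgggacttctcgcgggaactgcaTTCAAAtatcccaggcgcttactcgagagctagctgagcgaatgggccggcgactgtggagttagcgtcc
CENPF: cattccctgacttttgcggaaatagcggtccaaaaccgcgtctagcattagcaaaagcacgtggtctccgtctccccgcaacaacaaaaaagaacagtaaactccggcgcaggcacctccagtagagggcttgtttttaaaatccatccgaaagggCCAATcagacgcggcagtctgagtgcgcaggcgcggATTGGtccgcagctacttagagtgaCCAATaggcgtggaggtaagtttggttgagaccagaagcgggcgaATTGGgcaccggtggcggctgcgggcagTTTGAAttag
SKA2: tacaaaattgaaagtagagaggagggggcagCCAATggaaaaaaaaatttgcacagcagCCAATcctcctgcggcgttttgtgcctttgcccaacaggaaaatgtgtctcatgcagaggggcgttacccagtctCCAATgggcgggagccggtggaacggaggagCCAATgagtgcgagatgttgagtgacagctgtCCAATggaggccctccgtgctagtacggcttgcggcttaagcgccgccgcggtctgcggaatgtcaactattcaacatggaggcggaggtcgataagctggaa

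Counting the start base as position 1, the CHR covers positions 35 to 40 in SKA1, -3 to 3 in SKA3, -20 to -15 in SPDL1 and 41 to 46 in CENPF. In ZW10 it lies farther out, at -224 to -219. Thus 5 of the 9 genes with a window hold TTTGAA on either strand, against 15.2% of all 34943 RefSeq windows of that length. The units differ, here and for the motifs below. A gene counted if any of its windows held the motif, and the 9 genes have 11 windows, while the shares over all are per window. SPDL1 and NDE1 have 2 windows each, and NDE1 holds its NF-Y boxes only in the second. SKA2 holds 5 NF-Y boxes between positions -219 and -49 and no CHR. CENPF holds 4 NF-Y boxes besides its CHR, and in all 6 of the 9 genes hold an NF-Y box, against 34.6% of all windows. An E2F element (TTCCCGC, and with other middle bases the forms TTCGCGC, as well as TTGCCGC, as well as TTGGCGC, on either strand) is present in SKA1, SPDL1 and ZW10, against 12.9% of all windows, and in ZW10 it overlaps an NF-Y box. The forkhead core TAAACA, or its reverse complement TGTTTA, occurs in CENPE, against 12.3% of all windows. These matches describe letters and not binding, and KNTC1 had no entry.

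**Figure D1:**
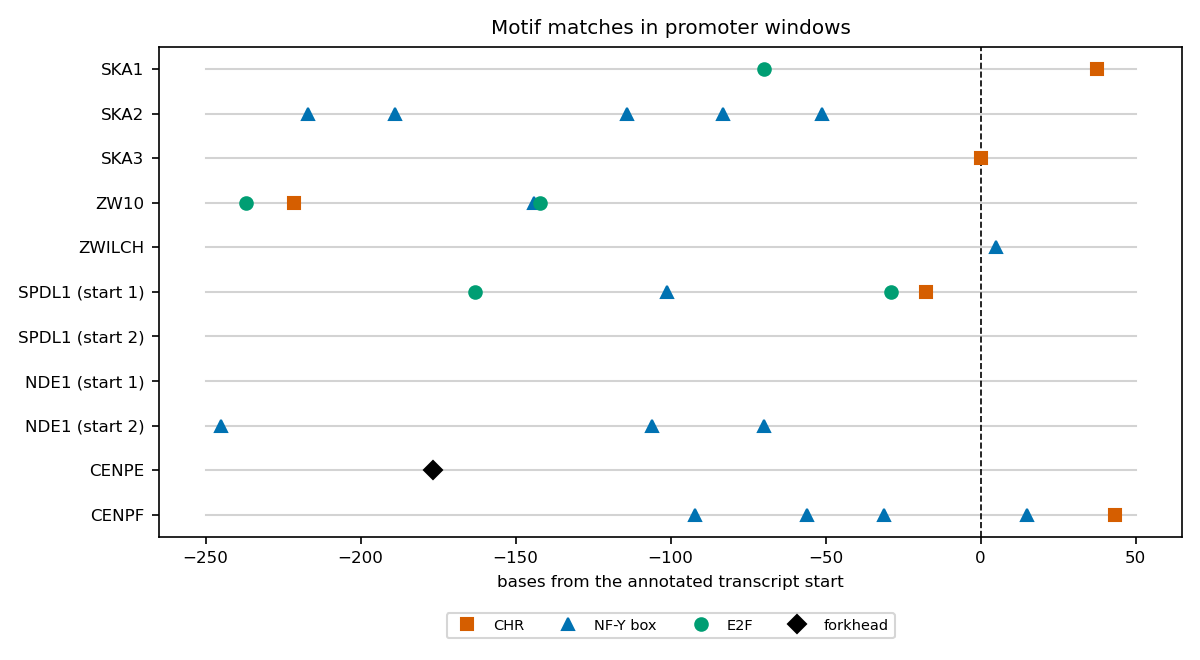
Motif matches in the 11 promoter windows of 9 genes, by distance in bases from the annotated transcript start (x axis). Squares are the CHR, triangles the NF-Y box, circles E2F elements and the diamond the forkhead core; the CHR lies within 46 bases of the start in SKA1, SKA3, SPDL1 and CENPF, and SKA2 carries a row of 5 NF-Y boxes.

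The comparison of dox with no dox asked how the transcripts of this layer changed when FOXM1 was induced. SKA1 and SKA3, the subunits that carry the microtubule-binding parts of the SKA complex, were lower in dox in every pair of equal replicate numbers, as were ZWILCH, KNTC1, SPDL1 and CENPE. NDE1 and SKA2 were higher in every pair, CENPF in 2 of 3 pairs, and ZW10 was lower in 2 of 3. In the limma fit without a block 0 of the 10 genes passed an adjusted p of 0.05, where 0.540% of all tested genes did (0.319% higher and 0.220% lower), and 7 of the 10 had an unadjusted limma p under 0.05, where 13.0% of all tested genes did. Libraries of equal number deviated together from their group means. With the replicate number as a block 7 of the 10 passed, where 22.5% of all tested genes did. In that fit 6 fell (SKA1, SKA3, ZWILCH, KNTC1, SPDL1 and CENPE), where 12.4% of all genes did, and 1 rose (NDE1), where 10.2% did. In normalised counts the dox and no dox groups did not overlap for 6 of the 10 genes. SKA1, SKA3, ZWILCH and SPDL1 were lower in dox, and SKA2 and NDE1 higher. On that scale the groups of 19.1% of all tested genes did not overlap (1319 genes lower and 1188 higher). In FPKM the groups overlapped for SKA2 (lowest dox 9.54, highest no dox 9.79) and for NDE1 (lowest dox 1.54, highest no dox 1.57). The median log2 change was -0.39 over the 10 genes and -0.0022 over all tested genes. In the authors' deposited table SKA1 and SKA3 were marked as lower, as were 0.815% of its genes, and none of the 10 as higher, as were 0.746%. In bulk RNA, fewer cells in a cell cycle phase and less RNA per cell cannot be told apart.

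**Figure D2:**
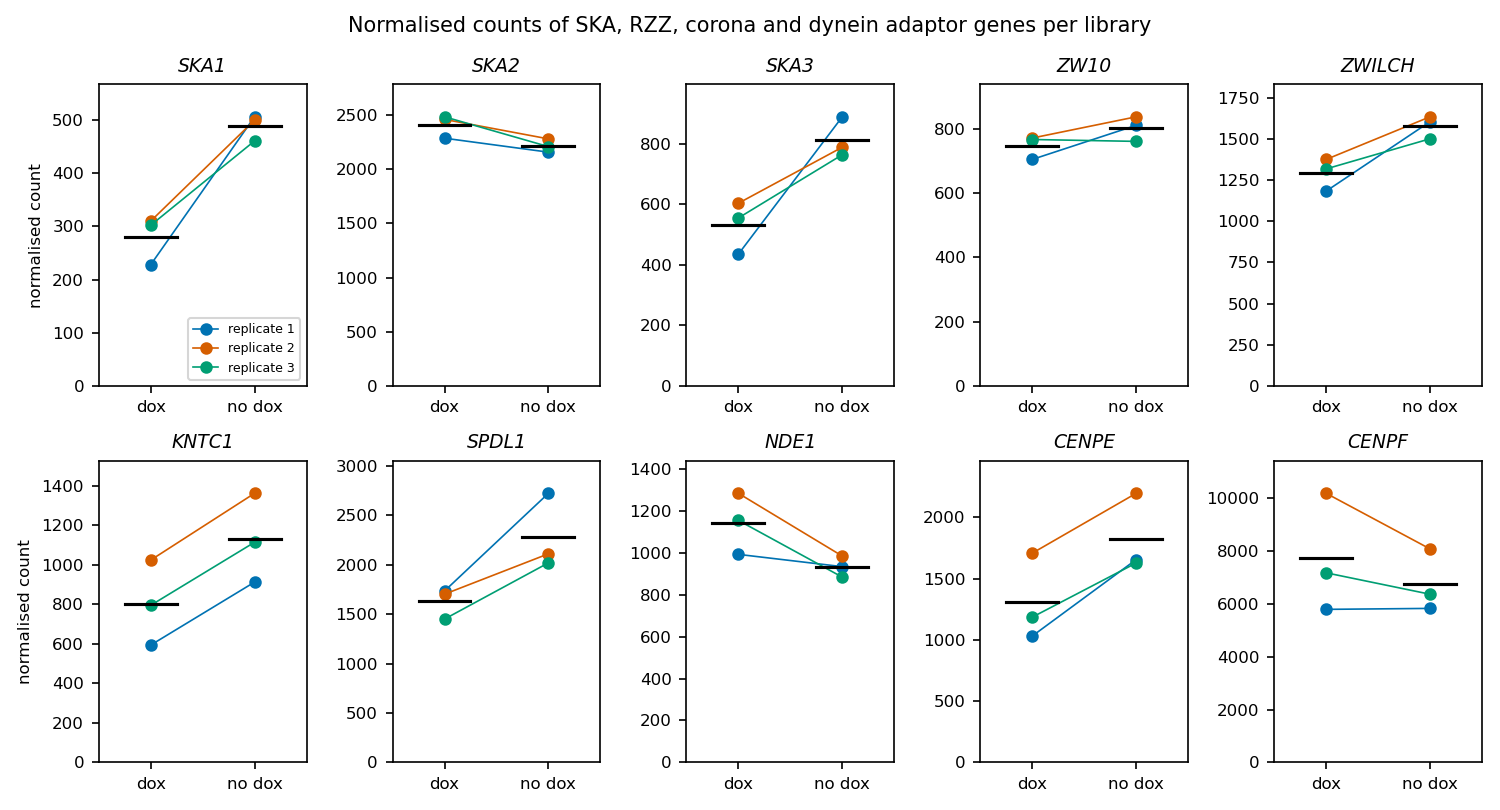
Normalised counts (y axes, from 0) of the 10 genes in each dox and no dox library, with lines joining equal replicate numbers and black bars at the group means. SKA1 and SKA3 are lower in dox in all pairs, SKA2 stays within 2158 and 2485, and CENPF, CENPE and KNTC1 are highest in replicate 2 of both groups.

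SKA1 had 228, 309.8 and 302 normalised counts in dox libraries 1 to 3, against 506, 499.8 and 461 in no dox libraries 1 to 3. Every dox library lay below every no dox library, with means of 279.9 ± 45.3 in dox and 489 ± 24.6 in no dox (mean ± SD of 3 libraries). The log2 change was -0.81 (SE 0.14), with a limma adjusted p of 0.0548 without the block and 7.15e-04 with it. The fall was largest in replicate 1 (-1.15), and reached -0.69 in replicate 2 and -0.61 in replicate 3. The gene (ENSG00000154839) occupies 47901365 to 47920543 of chromosome 18 in hg19 (plus strand), and its product binds microtubules and protein phosphatase 1. The authors' deposited table gives it a log2 fold change of -0.79 and an adjusted p of 0.00126.

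SKA3, whose product is a CDK1 substrate that docks the complex onto NDC80, had 435, 604 and 555 normalised counts in dox and 889, 789 and 764 in no dox libraries 1 to 3. Again the groups did not overlap, with means of 531 ± 86.6 in dox and 814 ± 66.3 in no dox (mean ± SD of 3 libraries). The log2 change was -0.63 (SE 0.13, limma adjusted p = 0.0975, or 0.00359 under the block). Replicate 1 showed the largest difference (-1.03), against -0.39 and -0.46 in replicates 2 and 3. The gene (ENSG00000165480) occupies 21727734 to 21750741 of chromosome 13 in hg19 (minus strand). MRP63, on the opposite strand 42 bases away, had a log2 change of 0.13 (limma adjusted p = 0.614, or 0.101 under the block). The authors' deposited table gives SKA3 a log2 fold change of -0.61 and an adjusted p of 0.00767.

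SKA2, the small coiled-coil subunit, had 2287, 2461 and 2485 normalised counts in dox libraries 1 to 3, against 2158, 2281 and 2209 in no dox libraries 1 to 3. The lowest dox library lay just above the highest no dox library, and the log2 change of 0.12 (SE 0.07) fell short of the threshold (limma adjusted p = 0.552, or 0.0773 under the block). SKA2 (ENSG00000182628, chromosome 17, 57187312 to 57232630 of hg19, minus strand) lies 229 bases from PRR11 on the opposite strand. PRR11 had 2939, 3715 and 3265 normalised counts in dox libraries 1 to 3, against 3184, 3504 and 2977 in no dox libraries 1 to 3, and its log2 change of 0.03 (SE 0.11) fell short too (limma adjusted p = 0.937, or 0.689 under the block).

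**Figure D3:**
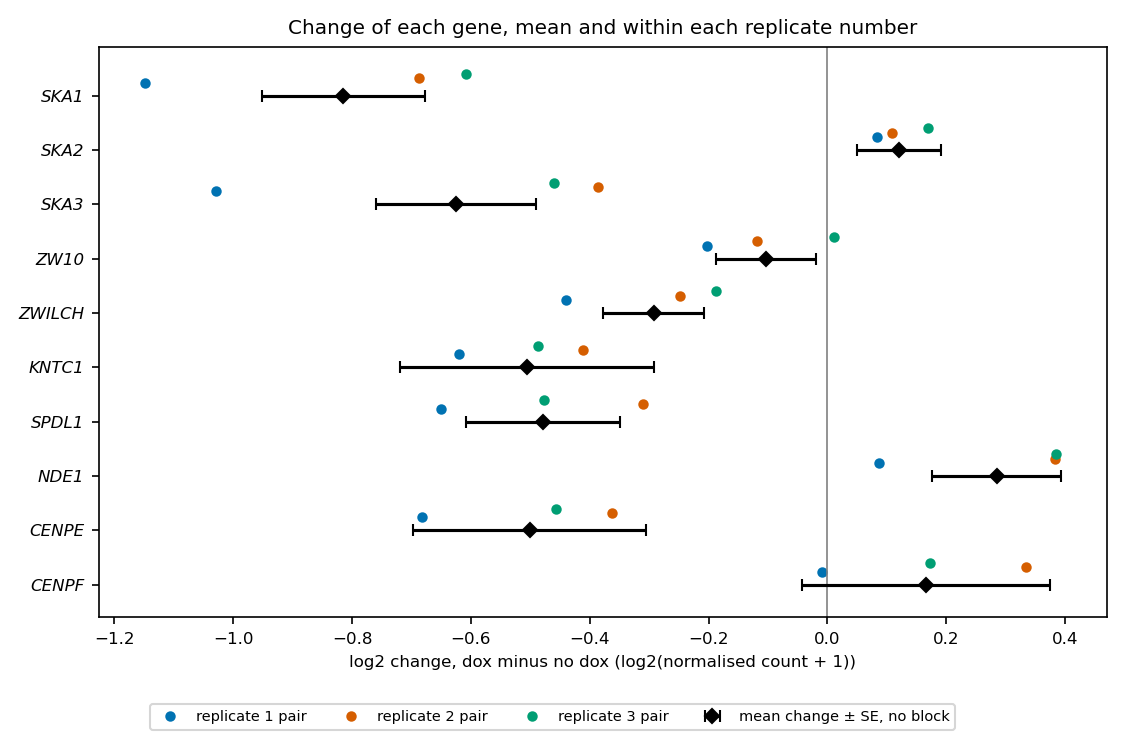
Log2 change, dox minus no dox (x axis), of each gene, with the mean and its SE from the limma fit without a block (diamonds, bars) and the change within each replicate number (dots). The dots of SKA1, SKA3, ZWILCH, KNTC1, SPDL1 and CENPE all lie below 0 and those of SKA2 and NDE1 all above it.

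The SKA proteins assemble in equal numbers, whereas SKA2 had the highest transcript level of these subunits in every library. Per length, on the FPKM scale, the level of SKA1 was 0.129, 0.163 and 0.155 of that of SKA2 in dox libraries 1 to 3, against 0.301, 0.281 and 0.268 in no dox libraries 1 to 3. For SKA3 over SKA2 the ratios were 0.143, 0.184 and 0.167 in dox and 0.308, 0.258 and 0.258 in no dox libraries 1 to 3. Neither set of ratios overlapped between the groups. In normalised counts SKA1 and SKA3 were lower, and SKA2 higher, in every dox library than in any no dox library. The separation of these ratios is therefore no separate observation. The FPKM ratio of SKA1 to SKA3 was 0.908 ± 0.0236 in dox, against 1.03 ± 0.0551 in no dox (mean ± SD of 3 libraries), and did not overlap either. The FPKM divides by the authors' gene width, which exceeds the longest GENCODE 29 transcript (6394 against 2905 bases for SKA1, 22030 against 3936 for NDE1, 13502 against 10307 for CENPF). Another length scales a ratio between genes by the same factor in every library, so that its size depends on the scale and its overlap between groups does not. With CPM per kilobase of that transcript, SKA1 over SKA2 averaged 0.112 in dox and 0.213 in no dox libraries, and SKA1 over SKA3 0.531 in dox and 0.605 in no dox.

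Of the RZZ genes, KNTC1 and ZWILCH fell with the block and ZW10 did not pass. KNTC1, which encodes Rod, the large scaffold subunit, had 594, 1024 and 795 normalised counts in dox libraries 1 to 3, against 913, 1362 and 1114 in no dox libraries 1 to 3. The groups overlapped, with replicate 2 the highest and replicate 1 the lowest in both, while each dox library was below its no dox partner by 0.62, 0.41 and 0.49 on the log2 scale. The log2 change was -0.51 (SE 0.21, limma adjusted p = 0.373), and with the block the SE was 0.06 and the adjusted p 4.64e-04. KNTC1 (ENSG00000184445) spans 123011793 to 123110943 of chromosome 12 in hg19, on the plus strand. RSRC2, 245 bases away on the opposite strand, had a log2 change of -0.11 (limma adjusted p = 0.876, or 0.122 under the block).

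ZWILCH, a subunit that packs against Rod and helps bind Spindly, had 1183, 1376 and 1318 normalised counts in dox and 1605, 1635 and 1501 in no dox libraries 1 to 3. The groups did not overlap, and the log2 change was -0.29 (SE 0.08, limma adjusted p = 0.186, or 0.00662 under the block). ZWILCH (ENSG00000174442, chromosome 15, 66797297 to 66842115 of hg19, plus strand) shares 19574 bases with RPL4 and 2599 with LCTL, both on the opposite strand, by the gene spans of the authors' deposited table. RefSeq on GRCh38.p14 has LCTL, and not RPL4, overlapping ZWILCH. RPL4, a ribosomal protein gene, had 1151.6 to 1813 CPM over the 6 libraries and ZWILCH 40.5 to 57.6 CPM. RPL4 was highest in replicate 3 of both groups, where ZWILCH was not. Whether reads of RPL4 were counted for ZWILCH was not tested. The log2 change of RPL4 was 0.17 (limma adjusted p = 0.798, or 0.0274 under the block). For LCTL it was -0.22 (limma adjusted p = 0.454, or 0.0923 under the block). The sources used here do not state a strand setting, and under the authors' spans the ZWILCH values are uncertain.

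ZW10, which links the complex to dynactin and also acts in membrane traffic in interphase, had 705, 772 and 767 normalised counts in dox libraries 1 to 3, against 811, 838 and 761 in no dox libraries 1 to 3. The groups overlapped, and the log2 change of -0.10 (SE 0.08) fell short of the threshold (limma adjusted p = 0.701, or 0.268 under the block). On the FPKM scale ZWILCH over ZW10 (ENSG00000086827, chromosome 11, 113603909 to 113644533 of hg19, minus strand) was 0.733 ± 0.0225 in dox and 0.835 ± 0.00623 in no dox libraries (mean ± SD of 3 libraries), without overlap. Per kilobase of the longest transcript it averaged 1.30 in dox and 1.49 in no dox, so that the order of their levels depends on the length used. For KNTC1 over ZW10 the FPKM ratios spread more, at 0.285 ± 0.0646 in dox and 0.375 ± 0.0682 in no dox libraries, and overlapped. KNTC1 over ZWILCH, at 0.387 ± 0.0758 in dox and 0.449 ± 0.0844 in no dox libraries, overlapped too.

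SPDL1, which encodes the dynein adaptor Spindly, had 1734, 1702 and 1449.8 normalised counts in dox libraries 1 to 3, against 2722, 2110.2 and 2019 in no dox libraries 1 to 3. All dox libraries lay below all no dox libraries, and the log2 change was -0.48 (SE 0.13, limma adjusted p = 0.156, or 7.61e-04 under the block). In normalised counts it was highest in replicate 1 of both groups, whereas in FPKM dox replicate 2 (4.39) was above dox replicate 1 (4.24). The authors' deposited table gives SPDL1 (ENSG00000040275, chromosome 5, 169010638 to 169031782 of hg19, plus strand) a log2 fold change of -0.48 and an adjusted p of 0.0222, without marking it as changed. Under an adjusted p of 0.05 the authors' deposited table holds 3 of the 10 genes (SKA1, SKA3 and SPDL1) and 2.78% of its genes, and 1.52% of its genes are lower and under that threshold.

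NDE1, which encodes a dynein and LIS1 binding protein that CENP-F recruits to kinetochores, had 992, 1283 and 1154 normalised counts in dox libraries 1 to 3, against 933, 984 and 883 in no dox libraries 1 to 3. The lowest dox library (992) lay just above the highest no dox library (984), and the log2 change was 0.29 (SE 0.11, limma adjusted p = 0.321). With the block it rose (adjusted p = 0.0149), and that call was lost in limma fits without replicate 2 (adjusted p = 0.125) or replicate 3 (adjusted p = 0.0934) and in the FPKM values with the block (adjusted p = 0.0586). The replicate changes were 0.09, 0.38 and 0.39 in pairs 1, 2 and 3. RefSeq places NDE1 (ENSG00000072864, chromosome 16, 15737124 to 15820210 of hg19, plus strand) over MYH11, a smooth muscle myosin gene, which reached at most 0.0202 FPKM in these libraries. Next to it KIAA0430, 100 bases away on the opposite strand, had a log2 change of 0.08 (limma adjusted p = 0.815, or 0.269 under the block). On the same strand AF001548.5, 320 bases away, had 0.40 (limma adjusted p = 0.608, or 0.161 under the block). On the FPKM scale SPDL1 over NDE1 was 2.27 ± 0.419 in dox and 3.86 ± 0.645 in no dox libraries (mean ± SD of 3 libraries), without overlap. As SPDL1 was lower and NDE1 higher in dox without overlap in normalised counts, this is no separate observation.

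CENPE and CENPF encode large farnesylated proteins of the corona, of which CENPE fell with the block and CENPF did not pass. CENPE had 1032, 1709 and 1186 normalised counts in dox libraries 1 to 3, against 1656, 2198 and 1628 in no dox libraries 1 to 3. Replicate 2 was the highest in both groups and the groups overlapped, but each dox library lay below its partner. The log2 change was -0.50 (SE 0.20, limma adjusted p = 0.335, or 6.33e-04 under the block), and it was -0.68, -0.36 and -0.46 within replicates 1, 2 and 3. The gene (ENSG00000138778) occupies 104026963 to 104119566 of chromosome 4 in hg19 (minus strand).

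CENPF (ENSG00000117724, chromosome 1, 214776538 to 214837931 of hg19, plus strand), which the series title names, had 5786, 10173.5 and 7168 normalised counts in dox libraries 1 to 3, against 5822, 8071 and 6358 in no dox libraries 1 to 3. The groups overlapped widely, and within replicates 1, 2 and 3 the log2 change was -0.0090, 0.33 and 0.17. The mean change of 0.17 (SE 0.21) fell short of the threshold (limma adjusted p = 0.833, or 0.0736 under the block). It passed with the block once replicate 1 was left out (0.25, limma adjusted p = 1.60e-05) and after quantile scaling with the block (0.20, adjusted p = 0.0442), and without dox replicate 2 its sign turned (-0.054). The FPKM ratio of CENPF to CENPE was 9.33, 9.92 and 10.1 in dox libraries 1 to 3, against 5.86, 6.12 and 6.50 in no dox libraries 1 to 3. Per kilobase of the longest transcript the ratios were 4.68, 4.97 and 5.05 in dox libraries 1 to 3, against 2.94, 3.07 and 3.26 in no dox libraries 1 to 3. Every dox value of this ratio lay above every no dox value, which the length used cannot change. The levels of CENPF and of CENPE each overlapped between the groups.

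**Figure D4:**
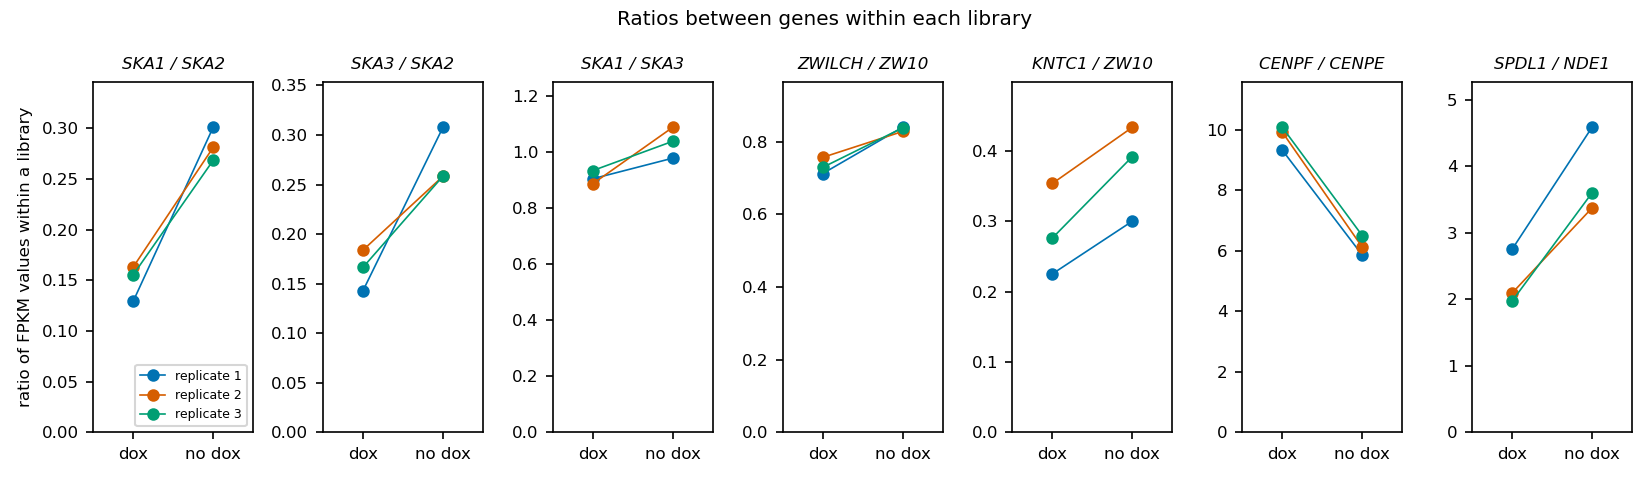
Ratios of FPKM values between genes of this layer within each library (y axes, from 0), with lines joining equal replicate numbers. SKA1 and SKA3 are lower relative to SKA2 in dox in all pairs, and the CENPF to CENPE ratio lies between 9.33 and 10.1 in dox and between 5.86 and 6.50 in no dox libraries. Per kilobase of the longest transcript the last ratio lies between 4.68 and 5.05 in dox and between 2.94 and 3.26 in no dox.

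The spread between libraries of 1 group differed from gene to gene. The highest over the lowest normalised count was 1.76 in dox and 1.39 in no dox libraries for CENPF. For KNTC1 it was 1.72 in dox and 1.49 in no dox, and for CENPE 1.66 in dox and 1.35 in no dox. SKA2 had 1.09 in dox and 1.06 in no dox, and ZW10 had 1.09 in dox and 1.10 in no dox. The genes with a wide spread are also those whose SE shrank most with the block, to 0.06 for each of CENPF, KNTC1 and CENPE, against 0.21, 0.21 and 0.20 without it.

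Ordered by FPKM, CENPF and SKA2 led in both groups. CENPF averaged 19.9 FPKM in dox and 17.1 in no dox libraries, and SKA2 averaged 10.2 in dox and 9.21 in no dox. SPDL1 followed at 4.05 in dox and 5.56 in no dox, then ZW10 at 3.93 in dox and 4.14 in no dox and ZWILCH at 2.88 in dox and 3.46 in no dox. In dox the ranges of SPDL1 and ZW10 overlapped, and below ZWILCH each gene overlapped the next one down, through CENPE (2.03 FPKM), NDE1 (1.81), SKA3 (1.69), SKA1 (1.53) and KNTC1 (1.13). In no dox the lower order was CENPE (2.78 FPKM), SKA1 (2.61), SKA3 (2.53), KNTC1 (1.56) and NDE1 (1.45), and the neighbours SKA3 and KNTC1 did not overlap. The ranges of KNTC1 and NDE1 overlapped. Per kilobase of the longest transcript, SKA2 (29.9), CENPF (26.1) and SPDL1 (21.2 CPM per kilobase) led in dox, and SPDL1 (29.2), SKA2 (27.0) and CENPF (22.4 CPM per kilobase) in no dox libraries, with neighbours that overlapped. On that scale NDE1 averaged 10.1 in dox and 8.09 CPM per kilobase in no dox libraries, above SKA1, CENPE and KNTC1 in both groups, so that its place in the order depends on the length used.

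Genes whose profile over the 6 libraries lay nearest were named by the root mean square distance of centred log2 levels, among genes at or above the median level. Nearest to SKA1 were CDCA8, which encodes borealin (0.05), NDC80 (0.05) and the sororin gene CDCA5 (0.07). Nearest to CENPF were the fatty acid synthase gene FASN (0.05), the nesprin gene SYNE2 (0.07) and SFSWAP (0.07), which, like CENPF, were highest in replicate 2 of both groups. Nearest to NDE1 were the mediator subunit gene MED25 (0.04), KLF10 (0.05) and VPS51 (0.05). These distances are a description over 6 libraries that share replicate effects.

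The KMN network (KNL1, MIS12 and NDC80 complexes, with ZWINT), to which the SKA and RZZ complexes bind, had a median log2 change of -0.69 over 10 genes. NDC80 fell also without the block (-0.89, SE 0.14, limma adjusted p = 0.0480), with 609 ± 111 normalised counts in dox, against 1117 ± 66.7 in no dox (mean ± SD of 3 libraries). Without the block 1 of the 10 passed, where 0.540% of all tested genes did. With the block 7 of the 10 fell, where 12.4% of all tested genes did. Those 7 include CASC5 (-1.03), which encodes KNL1, SPC24 (-0.99) and SPC25 (-0.89), subunits of the NDC80 complex, while the changes of MIS12 (-0.04), PMF1 (-0.05) and NSL1 (0.05) did not pass. Of 11 checkpoint and corona partners (median -0.33), 8 fell and 1 rose with the block, where 10.2% of all tested genes rose. Without the block 0 of the 11 passed. BUB1 (-0.63, limma adjusted p = 0.111 without the block) and BUB1B (-0.79, 0.131 without it), genes of the checkpoint kinase BUB1 and its relative BUBR1, were among the falls, and the rise was MAD1L1 (0.19), which encodes MAD1, while MAD2L1 (0.10) did not pass.

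Of the dynein subunits 2 of 9 tested and of the dynactin subunits 5 of 12 passed with the block, where 22.5% of all tested genes did. Over the dynein subunits the median log2 change was -0.07, with 1 rise with the block, the heavy chain DYNC1H1 (0.23), and 1 fall, the light intermediate chain DYNC1LI2 (-0.19). Of the dynactin subunits (median -0.08) 1 rose and 4 fell with the block, DCTN3 (-0.35) and CAPZA1 (-0.17) among the falls. A list of 8 genes (median -0.10) joined dynein regulators with microtubule plus-end proteins. With the block the plus-end protein gene CLASP1 rose (0.20) and the dynein adaptor gene BICD2 fell (-0.17). Of the genes named here DCTN3 had the smallest limma adjusted p without the block, 0.241.

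Smaller lists touched single partners. With the block 22.5% of all tested genes passed, 12.4% falling and 10.2% rising. Of 7 SKA partners (phosphatase 1 catalytic subunits, EB proteins and CDK1) 3 fell with the block, CDK1 (-0.39) and PPP1CC (-0.22) among them. NUP133, the nucleoporin that holds CENP-F at the nuclear envelope, rose with the block (0.26, limma adjusted p = 0.00638, and 0.190 without it), while RHOT1, the mitochondrial CENP-F receptor gene, did not pass (0.08). Of 4 genes of protein farnesylation and its later steps, ICMT, the carboxyl methyltransferase for such proteins, fell with the block (-0.48, limma adjusted p = 1.37e-04, and 0.0892 without it). FNTA, the farnesyltransferase alpha subunit, did not pass (0.10).

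**Figure D5:**
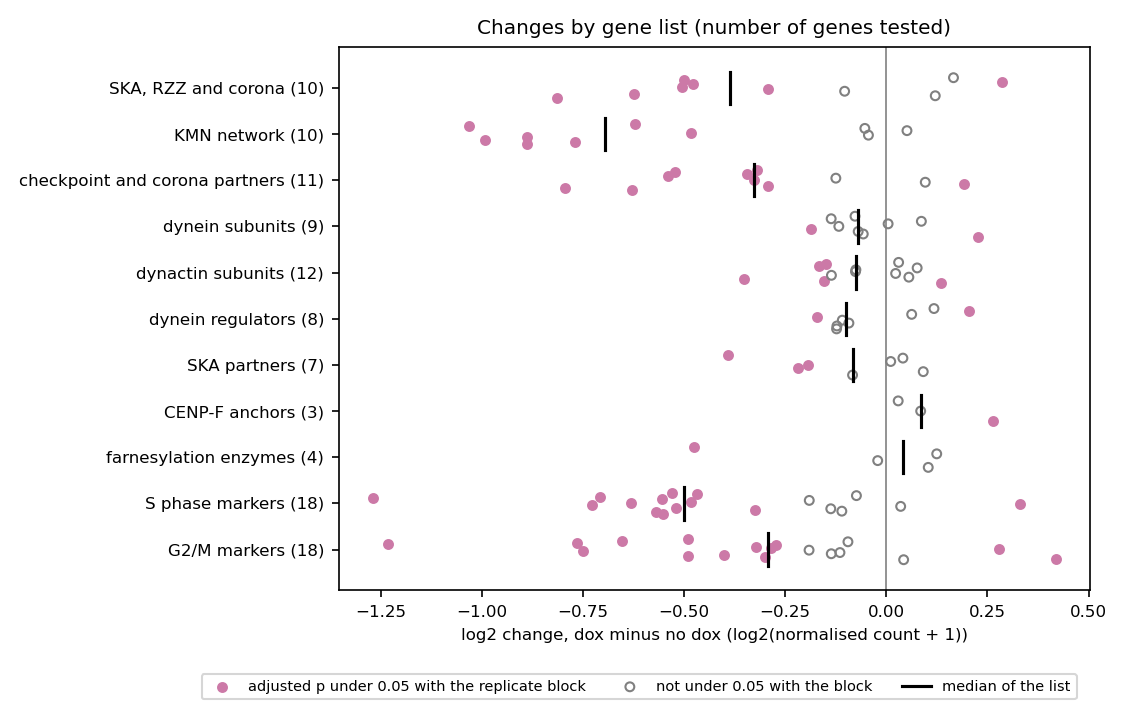
Log2 change, dox minus no dox (x axis), of each tested gene of the kinetochore layer and of 10 context lists, with the median of each list as a bar. Filled points passed limma with the replicate block; the KMN network has the lowest median (-0.69), and the dynein and dynactin lists lie near 0.

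Cell cycle phase markers were measured beside these genes. Summed over 18 S phase genes the level was 158, 196 and 185 FPKM in dox libraries 1 to 3, against 223, 221 and 193 in no dox libraries 1 to 3. Over 18 G2/M genes the sums were 256, 374 and 321 FPKM in dox, against 364, 392 and 340.3 in no dox libraries 1 to 3. Both sums overlapped between the groups and were lowest in dox replicate 1. In that library SKA1, SKA3, ZW10, ZWILCH, KNTC1 and CENPE also had their lowest FPKM values. The sums weigh high genes most, such as CKS2 (90.8 of 256 FPKM in dox replicate 1). Gene by gene, the median log2 change was -0.50 for the S phase list and -0.29 for the G2/M list. Without overlap between the groups, 13 S phase genes were lower in dox and 1 higher. For the G2/M genes these counts were 8 and 0, where 19.1% of all tested genes did not overlap in either direction. Of the S phase genes 12 fell and 1 rose with the block, E2F8 (-1.27) and CLSPN (-0.71) falling also without it. Of the G2/M genes 11 fell and 2 rose with the block, CDCA3 (-1.23) falling also without it. The rises were CCNB2 (0.42) and NUSAP1 (0.28), and the change of CCNB1 (0.04) did not pass. Among all tested genes 12.4% fell and 10.2% rose with the block, and 0.540% passed without it. The part of cell cycle phase in the changes of the 10 genes was not tested.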

How the data were processed

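The members and gene lists were chosen with earlier results of these data known. Per the submitters' processing notes, the tools were TopHat, Trimmomatic, bcl2fastq and edgeR and the genome build hg19, and the sources used here state neither their roles nor strand handling. The authors deposited normalised counts, a depth-equalised signal of unstated formula, for 13161 genes, and FPKM values, which equal the CPM divided by their gene width. Their deposited comparison table gives CPM per library, the log2 fold change of dox over no dox, log2 CPM, a likelihood ratio score, p-values and adjusted p-values, per the file headers. CPM values were whole multiples of 1 step per library (100% within 0.01), from which depth was read.

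All tests were two-sided limma-trend fits, with Benjamini-Hochberg adjustment over all tested genes and calls at 0.05. Except in the alternatives, they were made on log2(normalised count + 1). They covered genes that reached 10 normalised counts in 3 or more libraries (13153 kept, 8 removed, all 10 members kept). The alternatives used log2(FPKM + 0.1), pseudocounts of 0.25 and 5, no filter or a minimum of 50, TMM or quantile scaling, the replicate block, or fewer libraries. The log2(value + 1) scale understates changes of low genes. Across genes, libraries of equal number had correlated deviations (0.745, 0.726 and 0.768), while the labels do not say what a number shares. The numbers were therefore taken as pairs, and the block fit, with 2 residual degrees of freedom, is reported where a call depends on it. Genes were named by rule: the 10 members, FOXM1, overlapping genes, in each list those called without the block or else the 2 with the smallest p with it, and 3 nearest profiles each for SKA1, CENPF and NDE1. Other list genes printed, MYH11 and the adjacent genes were chosen after their values were seen. The lists' p-values were not adjusted over lists alone, and no set test was run. Fits were tested on simulated data. Promoter windows and the overlaps credited to RefSeq came from GRCh38.p14, and other overlaps and gaps from the authors' hg19 gene spans. Software was R 4.3.3, limma 3.58.1, Python 3.11.15, numpy 2.4.6, pandas 2.3.3 and matplotlib 3.10.9.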

Additional observations from a re-analysis of the deposited data

How the results depend on the processing

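Over 10 genes and 20 alternatives, 149 of 200 values kept their direction and stayed short of the threshold as in the limma fit without a block. In 50 the gene passed, 49 of them with the replicate block in the fit and 1 without it (SKA1 after quantile scaling, limma adjusted p = 0.0490). The CENPF change of 0.17 was -0.054 without dox replicate 2 and up to 0.35 when any other single library was left out, and the cause was not tested. The count of passing members, 0, was 7 with the replicate block, 6 from FPKM values with the block, 1 with quantile scaling, and 7 (TMM) and 8 (quantile) when these scalings were joined to the block, a setting added after the data were seen. It was 0 when any single library was left out without the block, and 6 to 9 when both libraries of a replicate number were left out of the block fit, which leaves 1 residual degree of freedom. In those 3 fits SKA1, SKA3, ZWILCH, KNTC1, SPDL1 and CENPE passed each time, and CENPF, SKA2 and NDE1 joined them without replicate 1. Over all genes 71 passed (42 higher, 29 lower), against 31 from FPKM values (26 higher, 5 lower), 2965 with the replicate block (1338 higher, 1627 lower), 2081 from FPKM values with the block (1154 higher, 927 lower), and 2978 (TMM) or 2918 (quantile) with the block. Leaving out single libraries gave 3 to 21 genes, and leaving out a replicate number from the block fit gave 3835, 1414 and 1779 for numbers 1, 2 and 3. Count models on reads recovered from CPM (edgeR, DESeq2), planned as alternatives, were not run.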
